A study of Mus musculus with 4 samples.

Results

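The genes described here encode 3 systems of guidance cues and their receptors: the Eph receptors with their ephrin ligands, the Slits with their Robo receptors, and the netrins with the receptors Dcc and Unc5. A gene belonged to the set if its probe set carried a single annotated symbol that starts with Epha, Ephb, Efna, Efnb, Slit or Robo and a digit, or that is Ntn1, Ntn3, Ntn4, Dcc or Unc5a to Unc5d. These names took in 36 of the 19937 genes measured, on 39 probe sets, and where a gene had several, the one with the greatest average signal on the 4 arrays was used. The 36 were 9 EphA and 4 EphB receptors, 5 ephrin-A and 3 ephrin-B ligands, 3 Slits, 4 Robo receptors, 3 netrins and 5 netrin receptors. Ephb2 was not analysed here.

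The cells came from gliomas of C57/Bl6 mice, induced at embryonic day 14 by injecting embryos with a retrovirus that carries PDGF-B together with EGFP. Pups were kept until glioma signs appeared, and EGFP-positive cells were sorted from the dissociated tumours by flow cytometry. The early-onset, low-grade group held 2 samples, each a pool of cells from 2 tumours (pool 1 and pool 2). The late-onset, high-grade group held 2 samples, each from 1 tumour (tumour 1 and tumour 2). Onset, grade and pooling thus change together between the groups and cannot be told apart. All 4 samples carried the PDGF-B and EGFP virus, so no group lacks the oncogene. The age of the mice was not given in the sources used here. Values are log2 signals of Affymetrix probe sets, a difference of 1 is a 2-fold change, and all differences below are late-onset minus early-onset.

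Ephrins are held on the cell surface, ephrin-As by a lipid anchor and ephrin-Bs by a membrane-spanning stretch, so they signal between cells that touch. Eph receptors are receptor tyrosine kinases, and contact often makes the cell that carries the receptor draw back. Slits are secreted proteins that repel cells carrying Robo receptors, and netrins are secreted relatives of laminins that attract through Dcc and repel through Unc5 receptors. In the developing brain these cues steer axons and the migration of neuronal and oligodendrocyte precursors.

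Late-onset cells had less RNA for a pair of receptors and more for 3 ligands. Robo1 fell 5.66-fold and Epha5 3.84-fold, while Efna1 rose 2.14-fold, Efna5 1.58-fold and Slit2 1.46-fold. The other 31 genes did not pass the test. The 5 called genes are 13.9% of the 36, and 14.7% of all 19937 genes were called by the same rule, so the set as a whole changed about as often as other genes. Of all genes, 6.59% were called higher and 8.12% lower. A gene was called where its adjusted p lay under 0.05 in limma, with Benjamini-Hochberg adjustment over all 19937 genes. The plot of all 36 fold changes orders them by role.

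**Figure D1:**
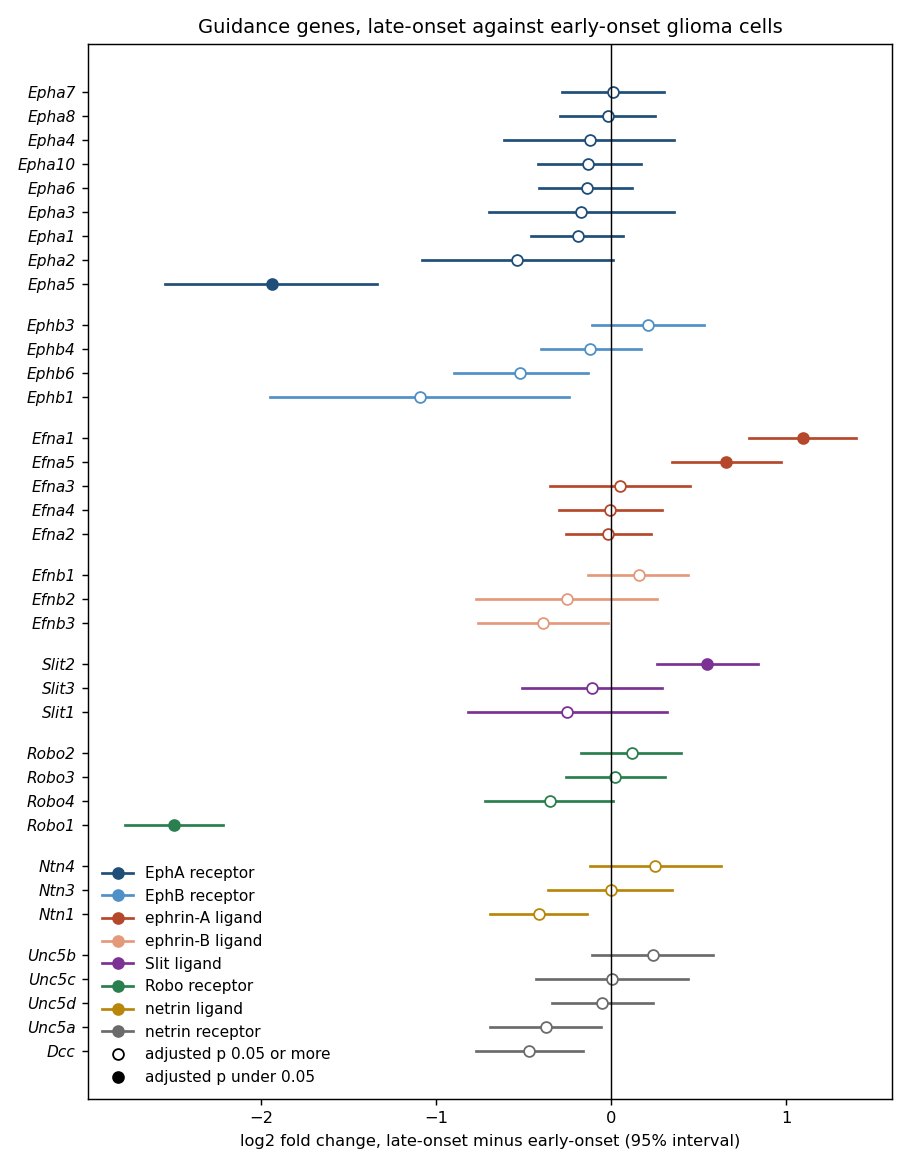
Log2 fold change of each of the 36 genes, late-onset minus early-onset, with its 95% interval from limma; colours mark the families and filled points an adjusted p under 0.05. Robo1 (-2.50) and Epha5 (-1.94) lie far to the left, Efna1 (1.10), Efna5 (0.66) and Slit2 (0.55) to the right, and the open points of the other 31 genes lie between -1.09 and 0.25.

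Promoter sequences were set beside the called genes that form known ligand and receptor families, Slit2 with Robo1 and Efna1 with Epha5, since these moved in opposite directions. Each line gives the 250 bases before a RefSeq transcript start (build GRCm38.p6), 5′ to 3′ on the strand of the gene. Capitals mark GGGCGG, the GC box, and TATAAA, the TATA box, read on both strands.
Slit2, chr5:47982905-47983154, plus strand: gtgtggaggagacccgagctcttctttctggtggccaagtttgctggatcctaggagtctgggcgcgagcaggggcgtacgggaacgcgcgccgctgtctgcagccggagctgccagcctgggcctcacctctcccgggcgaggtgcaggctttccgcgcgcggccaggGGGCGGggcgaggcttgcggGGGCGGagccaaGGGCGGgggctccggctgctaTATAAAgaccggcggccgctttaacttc
Robo1, chr16:72662899-72663148, plus strand: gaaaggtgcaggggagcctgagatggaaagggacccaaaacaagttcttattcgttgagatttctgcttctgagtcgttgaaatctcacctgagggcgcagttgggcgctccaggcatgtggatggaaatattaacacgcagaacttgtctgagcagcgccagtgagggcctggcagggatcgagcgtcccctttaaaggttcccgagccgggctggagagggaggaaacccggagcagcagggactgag
Efna1, chr3:89279646-89279895, minus strand: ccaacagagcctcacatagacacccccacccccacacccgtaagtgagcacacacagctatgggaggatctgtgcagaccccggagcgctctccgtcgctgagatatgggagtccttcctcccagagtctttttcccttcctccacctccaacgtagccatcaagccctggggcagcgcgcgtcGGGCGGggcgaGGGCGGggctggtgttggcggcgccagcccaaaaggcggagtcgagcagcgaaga
Efna1, chr3:89280952-89281201, minus strand: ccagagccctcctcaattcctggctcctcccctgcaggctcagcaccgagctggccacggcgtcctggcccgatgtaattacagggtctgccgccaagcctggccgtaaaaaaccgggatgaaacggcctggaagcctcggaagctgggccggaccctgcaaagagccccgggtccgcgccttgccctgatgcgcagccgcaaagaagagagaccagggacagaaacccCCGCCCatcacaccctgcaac
Epha5, chr5:84417383-84417632, minus strand: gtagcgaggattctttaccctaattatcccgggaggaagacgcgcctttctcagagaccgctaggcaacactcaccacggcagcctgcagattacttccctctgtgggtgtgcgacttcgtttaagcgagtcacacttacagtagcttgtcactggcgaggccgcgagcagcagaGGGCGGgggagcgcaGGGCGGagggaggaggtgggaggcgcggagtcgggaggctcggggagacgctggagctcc
The Slit2 window held 3 GC boxes and 1 TATA box, the Robo1 window none of either, and the Epha5 window 2 GC boxes. Efna1 has a RefSeq start behind each of its 2 windows, which held 2 and 1 GC boxes, and the arrays do not tell which start was used. Efna5, not printed, had 4 GC boxes. GC content was 69.6% for Slit2, 56% for Robo1 and 62.4% for Epha5. Windows were found for 31 of the 36 genes (36 windows in all), and Dcc, Efnb3, Ntn1, Slit1 and Unc5d had none. A GC box was present in 26 of these 36 windows (72.2%), against 32.7% of all 32851 mouse windows of the same length. Their median GC content was 65.2%, against 52.4% of all windows. All mouse windows belonged to 27025 genes, more than were measured here, and were not matched to the set in GC content. TATAAA was present in 5.56% of the set's windows and in 12.4% of all. ACGTG, the core of the hypoxia response element, was present in 13.9% and 16.6%, and in none of the 6 windows of the called genes. A match describes these letters and does not show a bound site.

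Among the Robo receptors the difference lay in Robo1, a receptor through which Slits repel migrating cells. Its log2 value was 9.95 in pool 1 and 9.77 in pool 2, against 7.33 in tumour 1 and 7.39 in tumour 2. The pools stood at least 2 log2 units above the tumours, and within each group the samples lay close together. The log2 fold change was -2.50 (SE 0.11, limma adjusted p = 0.00156), and Robo1 was called in each of the 15 alternatives tried, between -2.59 and -2.34. Robo2, a related Slit receptor and the neighbour of Robo1 with 0 protein-coding genes between them in RefSeq, read 7.09 and 7.06 in the pools and 7.09 and 7.29 in the tumours. Its difference was 0.12 (95% interval -0.17 to 0.40, adjusted p = 0.563), so a fall of the size of Robo1's lay outside its interval. Robo3, a divergent family member known from commissural axons, was dim on all arrays and stood at 0.02 (-0.26 to 0.31). Robo4, known from endothelial cells, read 6.09 and 5.75 in the pools and 5.51 and 5.63 in the tumours, a difference of -0.35 with an adjusted p of 0.18.

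Of the Slits, Slit2 rose. It read 9.14 in pool 1 and 9.27 in pool 2, against 9.85 in tumour 1 and 9.67 in tumour 2. Both tumours lay above both pools, by less than the gap seen for Robo1. The log2 fold change was 0.55 (SE 0.12, limma adjusted p = 0.0367). That call was lost without pool 1 (0.49, adjusted p 0.187), pool 2 (0.61, 0.137) or tumour 1 (0.46, 0.0894) and after cyclic loess scaling (0.48, 0.0543). Slit1 read 6.42 and 7.08 in the pools and 6.55 and 6.45 in the tumours. The 0.66 between the pools was the widest gap between pools in the set and wider than the Slit1 difference between groups, -0.25 (SE 0.23, adjusted p = 0.534). Slit3 stood at -0.11 (95% interval -0.51 to 0.29), with 6.30 in each pool and 5.98 and 6.39 in the tumours.

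**Figure D2:**
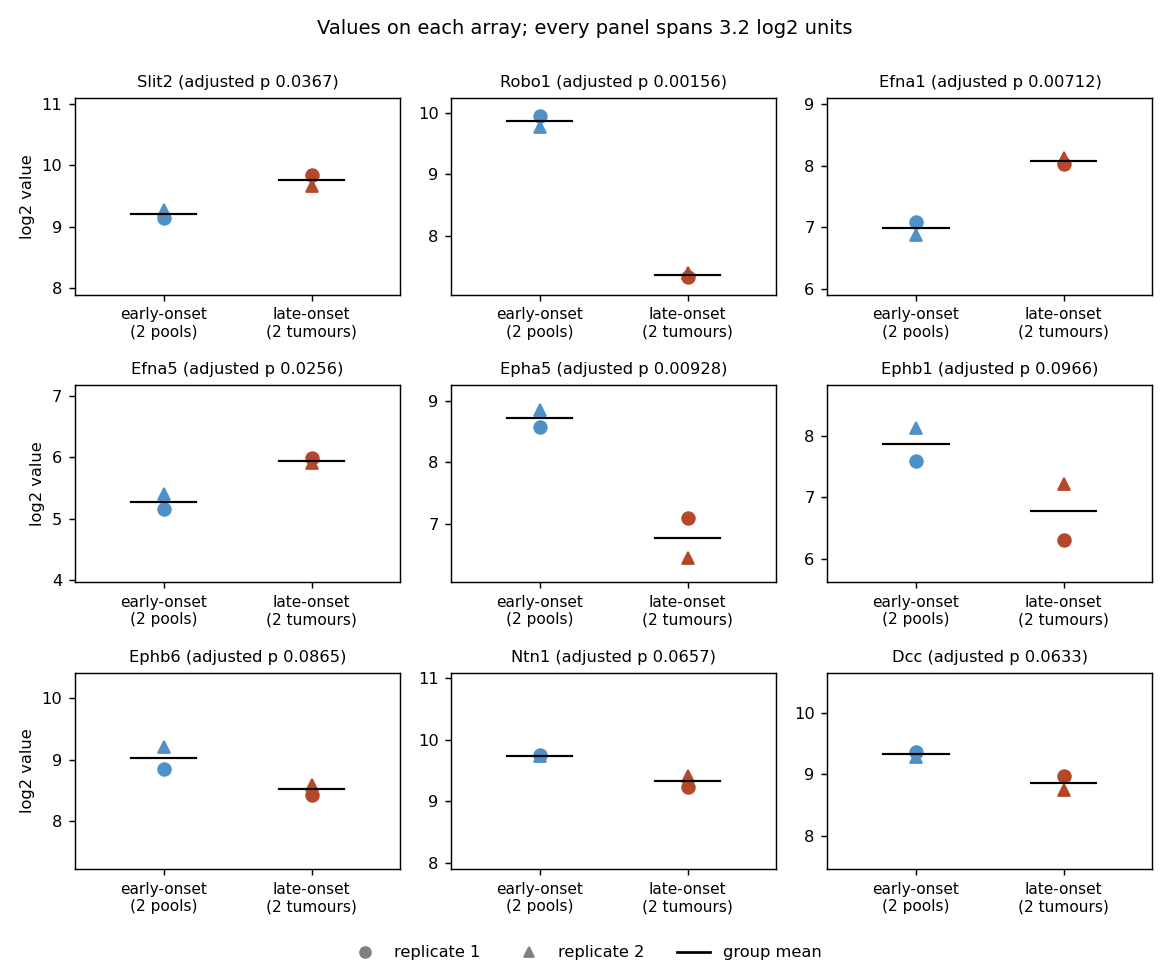
Log2 value of 9 genes on each array, early-onset pools in blue and late-onset tumours in red, with replicates 1 and 2 as circles and triangles and group means as lines; all panels span the same range. The panels hold the called genes and, of the others, those with the lowest adjusted p. In each panel the tumours lie on one side of the pools, by 2.50 on average for Robo1 and 0.41 for Ntn1. The groups separated in this way in 58.9% of all genes.

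The ephrin-A ligands, which bind EphA receptors, held the remaining genes that rose. Efna1, a ligand of EphA2 and other EphA receptors, read 7.09 in pool 1 and 6.87 in pool 2, against 8.03 in tumour 1 and 8.13 in tumour 2. Both tumours lay well above the pools, with a log2 fold change of 1.10 (SE 0.12, limma adjusted p = 0.00712), and the gene was called in each of the 15 alternatives tried, between 0.99 and 1.26. Efna5, which patterns axon maps in the brain, read 5.16 and 5.40 in the pools and 5.98 and 5.90 in the tumours. It rose by 0.66 (SE 0.12, adjusted p = 0.0256) from a dim level, at which RMA values understate a fold change. The Efna5 call was lost without any 1 of the samples: pool 1 (0.54, adjusted p 0.13), pool 2 (0.78, 0.0684), tumour 1 (0.62, 0.0659) or tumour 2 (0.70, 0.057).

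Efna3 and Efna4, which RefSeq places next to Efna1 in a row with 0 other protein-coding genes between them, showed no such rise. Efna3 read 6.15 and 5.99 in the pools and 5.93 and 6.31 in the tumours, a difference of 0.05 (95% interval -0.35 to 0.45). Efna4 read 6.44 and 6.61 against 6.45 and 6.59, a difference of -0.004 (-0.30 to 0.29). The upper bounds of these intervals lie below the Efna1 difference of 1.10. Efna2 read 8.91 and 8.86 in the pools and 8.88 and 8.85 in the tumours, and differed by -0.02 (-0.26 to 0.23). In Efna2, Efna3 and Efna4 the values of the groups overlapped.

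Epha5, a receptor for ephrin-As that is abundant in the brain, fell the furthest of the Eph receptors. It read 8.58 in pool 1 and 8.86 in pool 2, against 7.10 in tumour 1 and 6.45 in tumour 2. The tumours differed from each other by 0.65, yet both lay more than 1 log2 unit below the pools. The log2 fold change was -1.94 (SE 0.24, limma adjusted p = 0.00928). Without pool 2 it was -1.80 and the call was lost (adjusted p = 0.0582), and it ranged from -2.27 to -1.62 over the 15 alternatives.

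The other 8 EphA receptors were not called, and their differences ran from -0.54 to 0.01. Epha2, whose best known ligand is ephrin-A1, read 7.14 and 6.85 in the pools and 6.17 and 6.73 in the tumours. The tumours lay below the pools, by -0.54 (SE 0.22, adjusted p = 0.171), and without tumour 2 the difference was -0.82 and was called (adjusted p = 0.0481). Epha4, which binds ephrins of both classes, read 8.38 and 8.12 in the pools and 8.36 and 7.89 in the tumours, so the groups overlapped (-0.12, 95% interval -0.61 to 0.36). Epha3 read 5.03 and 5.32 in the pools and 4.75 and 5.28 in the tumours. Epha1, Epha3, Epha6 and Epha7 had means below 5.52, the lower quartile of all genes, so little change could be seen in them. Epha8 (-0.02) and Epha10 (-0.13), the latter a receptor without kinase activity, lay near 0, and the second probe set of Epha10 gave -0.21.

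Among EphB receptors, Ephb1 had the widest difference without passing the test. It read 7.59 in pool 1 and 8.13 in pool 2, against 6.31 in tumour 1 and 7.22 in tumour 2. The tumours lay below the pools, but 0.91 apart, the widest gap between tumours in the set. The log2 fold change was -1.09 (SE 0.34, limma adjusted p = 0.0966). It was -1.55 and called without tumour 2 (adjusted p = 0.027), and -0.64 without tumour 1 (0.166). A second Ephb1 probe set read from 5.56 to 5.73 on the 4 arrays and gave -0.06 (adjusted p 0.789). It lay near 5.52, the lower quartile of all genes, so little change could be seen in it. The Ephb1 difference thus rested on 1 probe set. Ephb6, a member without kinase activity, read 8.86 and 9.21 in the pools and 8.43 and 8.60 in the tumours (-0.52, SE 0.15, adjusted p = 0.0865). Ephb3 read 9.08 and 9.31 against 9.34 and 9.48 (0.21, 95% interval -0.11 to 0.53). Ephb4, the receptor of venous endothelium, stood at -0.12 (-0.40 to 0.17).

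None of the 3 ephrin-B genes was called. Efnb1 read 7.77 and 7.96 in the pools and 8.00 and 8.03 in the tumours, a difference of 0.16 (95% interval -0.13 to 0.44). Efnb2, the partner of EphB4 on arterial endothelium, read 7.61 and 7.43 in the pools, 6.98 in tumour 1 and 7.55 in tumour 2. Tumour 2 thus lay within the range of the pools, and the difference of -0.25 (SE 0.20) did not exceed the gap of 0.56 between tumours. Efnb3 read 8.05 and 8.15 against 7.53 and 7.89, with a difference of -0.39 (SE 0.15, adjusted p = 0.154).

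Netrin 1 and Dcc came nearest to the threshold among the genes not called. Ntn1, the main secreted netrin of the brain, read 9.75 and 9.74 in the pools and 9.24 and 9.42 in the tumours. Both tumours lay below both pools, with a log2 fold change of -0.41 (SE 0.11, limma adjusted p = 0.0657). It was called after quantile normalization (-0.47, adjusted p 0.0439), after cyclic loess (-0.48, 0.0411) and among genes above the median level (-0.41, 0.0439). Dcc, the attractive netrin receptor, read 9.37 and 9.28 in the pools and 8.98 and 8.74 in the tumours (-0.47, SE 0.12, adjusted p = 0.0633). It was called without tumour 1 (-0.58, 0.0487) and among genes above the median level (0.0437).

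The other netrins and receptors showed smaller differences. Unc5a, a repulsive netrin receptor, read 8.26 and 8.51 in the pools and 8.03 and 7.99 in the tumours (-0.37, SE 0.12, adjusted p = 0.112). Unc5b, which endothelial cells also carry, read 6.59 and 6.56 in the pools and 6.66 and 6.97 in the tumours (0.24, adjusted p = 0.319). Unc5c read 9.74 in each pool, 9.98 in tumour 1 and 9.51 in tumour 2, so that the tumours lay on either side of the pools (0.0043, 95% interval -0.43 to 0.44). Unc5d stood at -0.05 (-0.34 to 0.24). Ntn4, a netrin of basement membranes, read 8.26 and 8.34 in the pools, 8.74 in tumour 1 and 8.37 in tumour 2 (0.25, adjusted p = 0.331). Ntn3 stood at -0.0031 (-0.36 to 0.35).

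By role, 3 of the 14 ligand genes were called higher and 0 lower, while 2 of the 22 receptor genes were called lower and 0 higher. Over all genes 6.59% were called higher and 8.12% lower. The counts by role are small and were not tested against those shares. The median log2 fold change was -0.0035 over ligands and -0.13 over receptors, against -0.01 over all genes. The difference between ligands and receptors was not tested. In 21 of the 36 genes (58.3%) the groups did not overlap, and 58.9% of all genes did the same. Of the 36 genes, 8 had both tumours above both pools, against 28.5% of all genes. Another 13 of the 36 had them below, against 30.4% of all genes. At an unadjusted p under 0.05 the set held 11 genes, and 29.9% of all genes passed that level. The 95% interval lay within -1 and 1 for 29 of the 31 genes not called, and within -0.5 and 0.5 for 15 of them. The plot of fold change against level sets the 36 genes among all others.

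**Figure D3:**
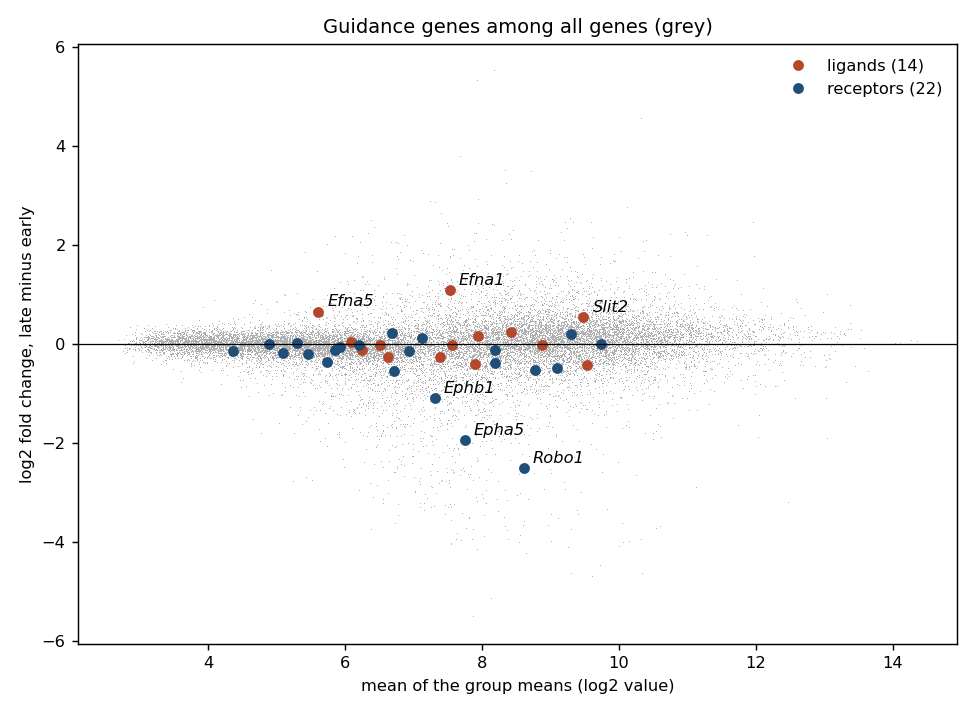
Log2 fold change, late-onset minus early-onset, against the mean log2 level of the groups, for all 19937 genes (grey dots), the 14 ligand genes (red) and the 22 receptor genes (blue). Most of the 36 lie near 0. Robo1 (-2.50), Epha5 (-1.94) and Ephb1 (-1.09, not called) lie lowest of the 36, and Efna1, Efna5 and Slit2 highest.

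Samples of a group also differed from each other. A pool averages 2 tumours, so gaps between pools and gaps between tumours are not like measures. The median gap between the pools was 0.18 over the 36 genes and 0.12 over all genes, and between the tumours it was 0.18 and 0.14. Tumour 2 read higher than tumour 1 in 23 of the 36 genes, and its median over all genes was also higher (7.36 against 7.31). The tumours were more than 0.5 apart for 5 genes, namely Ephb1, Epha5, Epha2, Efnb2 and Epha3, and the pools for Slit1 and Ephb1. Shares of all genes were not computed for these counts, so they show no trait of the set.

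The sorted cells carried the markers of oligodendrocyte progenitors on every array. The median log2 value over 11 such genes lay between 11.89 and 12.28, and 2 of the 11 fell. All 11 had a difference below 0 (median -0.35). In 8 of them both tumours lay below both pools, against 30.4% of all genes. Their summed linear signal was 62802 and 66706 in the pools and 50084 and 48582 in the tumours. Markers of other cells also differed between the groups. Of 19 myeloid markers, 18 fell, their median was 10.96 and 10.65 in the pools and 6.89 and 7.15 in the tumours, and their summed linear signal was 44835 and 38555 against 2331 and 3543. Of 16 neuron markers, 6 fell and 1 rose, with sums of 9625 and 10582 in the pools and 9538 and 8067 in the tumours. Their median was 7.66 and 8.16 in the pools and 6.93 and 7.76 in the tumours. Of 15 astrocyte markers, 9 fell and 0 rose, with sums of 31553 and 37351 against 9938 and 11979. Apoe, the brightest of them in the pools, weighed most in the pool sums (13.97 and 14.17 against 10.35 and 11.38). The astrocyte median was 9.02 and 9.35 in the pools and 7.49 and 8.69 in the tumours. Of 11 oligodendrocyte markers 2 rose and 2 fell, and of 12 pericyte and smooth muscle markers 2 fell. Sums ran from 11328 to 14800 in the pools and 12026 to 13825 in the tumours for the former. For the latter they ran from 3867 to 4142 and from 4007 to 4795. Its brightest gene was Cspg4 (11.19 to 11.67), also a progenitor marker. Tumour 2 read above tumour 1 for Acta2 (10.31 against 7.43), Tagln (8.42 against 6.13) and Pdgfrb (7.93 against 6.03). Cspg4, Vtn, Myh11 and Notch3 did not read higher in tumour 2. A log2 array value has no 0, so no marker can be called absent. Fewer cells of a type and less RNA per cell cannot be told apart in these samples. The part of myeloid, neuronal or astrocytic cells in the changes of Robo1, Epha5, Efna1, Efna5 and Slit2 was not tested.

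Endothelial cells are known to carry Efnb2, Ephb4, Robo4 and Unc5b. Of 15 endothelial markers 1 rose, Erg (1.58), and 1 fell, Slco1a4 (-1.44). Their median was 6.67 in pool 1, 6.20 in pool 2, 5.88 in tumour 1 and 6.57 in tumour 2, with summed signals of 1948, 1409, 1266 and 1836. The lowest sample by these markers, tumour 1, was also the lowest for Efnb2, Ephb4 and Robo4, but not for Unc5b. For Ephb4 the margin was slight, with 5.78 in tumour 1 against 5.81 in both pool 2 and tumour 2. The part of endothelial cells in these genes was not tested.

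Partners of the pathways came from lists of 105 genes. These held proteases, adaptors, exchange factors, kinases, co-receptors and further ligands, but also other classes such as homeobox genes. Of the 105, 100 were measured. Of these, 10 rose and 9 fell (19%, against 14.7% of all genes), with a median of -0.06. Most of these partners lay above the lower quartile of level, and in a fit of the genes above it 20.3% were called. Among 40 partners of Eph receptors and ephrins, 3 rose and 3 fell (median 0.06). Mmp14 (1.28), a membrane protease that cleaves EphA2, Ptpn13 (0.96), a phosphatase that acts on ephrin-B, and Vav3 (0.83), a guanine nucleotide exchange factor, rose. Kalrn (-0.82), an exchange factor of dendritic spines, and the kinase gene Src (-0.42) fell.

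Among 33 partners of Slits and Robos, 4 rose and 2 fell (median -0.07). Sdc1 (1.78) and Gpc1 (0.73) encode heparan sulfate proteoglycans, which bind Slits, and both rose. Of the same kind, and named after their values were seen, Sdc3 fell (-0.54, limma adjusted p = 0.0277) and Sdc2 was not called (-0.15, 0.456). The call of Sdc3 was lost without pool 1 (0.123), pool 2 (0.169) or tumour 1 (0.0705) and after median subtraction (0.051). Also higher were the homeobox gene Hoxa5 (2.17) and the kinase gene Pak3 (0.83). Flrt1 (-0.64), a gene of a Robo-binding membrane protein family, fell. Among 27 partners of netrins, 3 rose and 4 fell (median -0.08). Mcam (2.26), which encodes a further netrin 1 receptor, Tubb3 (1.86), a tubulin that binds Dcc and is also a neuron marker, and Siah1b (0.82), a ubiquitin ligase of the family that degrades Dcc, rose. Dapk1 (-1.02), a kinase of Unc5b death signalling, and Dscaml1 (-0.98), a relative of the netrin receptor Dscam, fell. Neo1, which encodes the Dcc relative neogenin, was not called (-0.15, adjusted p = 0.404).

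The calls of Sdc1, Mcam and Tubb3 held in all 14 alternatives run on the partners. In the 15 named partners, limma adjusted p ran from 0.0013 for Mcam to 0.0475 for Src. Without pool 1, calls were lost for Mmp14, Ptpn13, Src, Hoxa5, Gpc1, Flrt1, Dscaml1 and Siah1b (adjusted p 0.0582 to 0.202). Without pool 2 they were lost for Mmp14, Vav3, Kalrn, Src, Hoxa5, Pak3, Gpc1, Flrt1, Dapk1, Dscaml1 and Siah1b (0.0515 to 0.233). Without tumour 1 they were lost for Vav3, Src, Pak3 and Gpc1 (0.0503 to 0.087), and without tumour 2 for Src, Pak3 and Flrt1 (0.0808 to 0.125). After median subtraction Src stood at -0.26 (0.143) and Flrt1 at -0.48 (0.0753), and Gpc1 lost its call after quantile normalization (0.0581) and cyclic loess (0.0631).

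**Figure D4:**
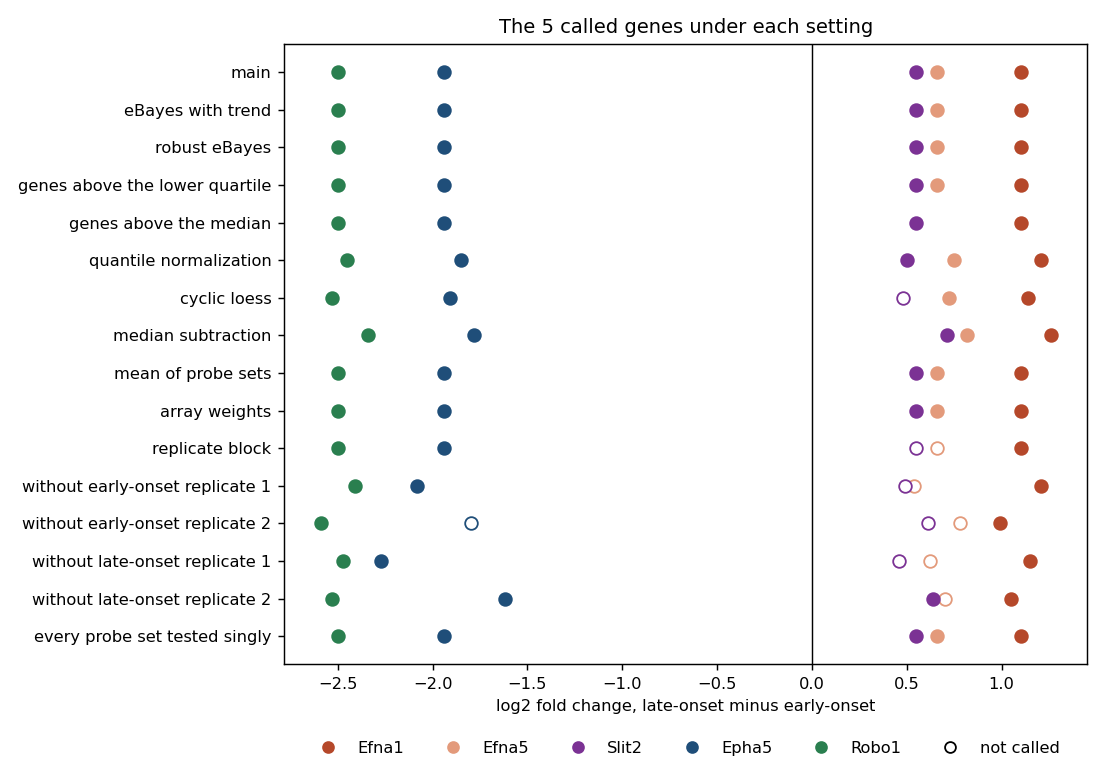
Log2 fold change of the 5 called genes, late-onset minus early-onset, under the reported setting (main) and 15 alternatives; open points were not called, and Efna5 has no point among genes above the median. Robo1 (-2.59 to -2.34) and Efna1 (0.99 to 1.26) stay filled in every row, whereas Efna5 opens in each row that leaves out a sample and Slit2 in all but the last of these.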

How the data were processed

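Sorted glioma cells were measured on 4 arrays, 2 early-onset pools and 2 late-onset tumours. The authors deposited log2 probe set values of 34760 probe sets, made with RMA and affy 3.4.2 per the submitters' processing notes, with no parameters. RMA normally brings arrays to similar distributions, which may hide a general rise or fall in expression. Values ran from 2.17 to 14.8, with column medians between 6.63 and 6.71. Correlation was 0.992 between pools, 0.988 between tumours and 0.972 to 0.974 between groups. The number of arrays limits the precision.

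A single symbol in the platform annotation named 21640 probe sets, 1321 had several and 11799 none, and 21553 matched RefSeq (GRCm38.p6). The fit used lmFit and eBayes of limma 3.58.1 (R 4.3.3), with 2 residual and 3.27 prior degrees of freedom, at an adjusted p of 0.05. Adjusted p-values are from this fit, or, where a setting or probe set is named beside them, from the same procedure on it. The procedure was tested on simulated data. Every member could be named, and up to 5 called partners a list by size of change. The members and lists were chosen with earlier results of these data known. The labels call the samples biological replicates.

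Alternatives changed the variance model, filter, scaling, probe set, weights, block, threshold and samples.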

Additional observations from a re-analysis of the deposited data

How the results depend on the processing

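Robo1 and Efna1 were called in all 15 alternatives, Epha5 in 14 of 15, Slit2 in 10 of 15 and Efna5 in 9 of 14. The count of genes called higher, 3 as reported, was 1 at an adjusted p of 0.01 and ran from 1 to 2 with 1 sample left out. The count called lower, 2 as reported, was 4 among genes above the median level, 6 at an adjusted p of 0.1, and ran from 1 to 4 with 1 sample left out. The count of partners, 19 as reported, was 4 at an adjusted p of 0.01 and ran from 4 to 17 with 1 sample left out. A fit that leaves 1 sample in a group assumes that it varies like the other group.

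Deviations of replicate 1 from its group mean correlated at -0.0439 over all genes between the groups, so no shared shift by replicate number was seen. With 2 samples a group, this cannot show whether the samples were paired. With the replicate number as a block, 1 gene was called higher, 3 lower, with Ephb1 added (adjusted p 0.0321) and Efna5 (0.0623) and Slit2 (0.0847) lost, and 12 partners were called, with 1833 of all genes. Of the partners named, Mmp14 (0.0562), Src (0.0956), Pak3 (0.051), Gpc1 (0.0999), Flrt1 (0.0981), Dscaml1 (0.0604) and Sdc3 (0.0584) lost their calls.

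Subtracting each array's median over the 19937 genes (7.47 and 7.51 in the pools, 7.31 and 7.36 in the tumours) moved the median of all genes from -0.01 to 0.15, and the share of calls that were higher from 44.8% to 70.1%. It raised every gene by the same 0.16, and 10 genes not called thereby crossed 0, of which 8 lay below the moved median of all genes: Epha6 (0.02), Epha4 (0.04), Epha10 (0.03), Epha8 (0.14), Ephb4 (0.04), Efna4 (0.16), Efna2 (0.14), Slit3 (0.05), Ntn3 (0.16) and Unc5d (0.11). After quantile normalization Epha10 (0.05), Epha8 (0.12), Efna4 (0.17), Slit3 (0.03), Ntn3 (0.14), Unc5c (-0.06) and Unc5d (0.07) did so, and after cyclic loess Epha8 (0.05), Efna4 (0.07), Ntn3 (0.04), Unc5c (-0.07) and Unc5d (0.01). With 1 sample left out, the range crossed 0 for Epha3 (-0.43 to 0.10), Epha4 (-0.36 to 0.11), Epha7 (-0.08 to 0.10), Epha8 (-0.10 to 0.06), Efna3 (-0.14 to 0.24), Efna4 (-0.09 to 0.08), Efna2 (-0.04 to 0.01), Efnb2 (-0.53 to 0.03), Slit1 (-0.57 to 0.08), Slit3 (-0.32 to 0.09), Robo3 (-0.08 to 0.12), Ntn3 (-0.17 to 0.16), Unc5c (-0.23 to 0.24) and Unc5d (-0.15 to 0.04). The cause of the changes under the other alternatives was not tested.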

Other observations

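The Slitrk genes share the start of their name with the Slits but stand outside the set, and were looked at after their values were seen. They encode neuronal membrane proteins with Slit-like repeats that organise synapses. Slitrk1 read 10.69 and 10.64 in the pools and 9.24 and 8.72 in the tumours. It fell by 1.68 on the log2 scale (SE 0.18, limma adjusted p = 0.00713), and was called in each of 14 alternatives. Slitrk3 (-0.87, adjusted p 0.105) and Slitrk4 (-0.56, 0.0818) were not called, though both tumours lay below both pools. Slitrk2 read between 10.43 and 10.49 on all 4 arrays (-0.0025, 95% interval -0.25 to 0.24), and Slitrk5 stood at -0.08. Slitrk6 read 7.18 and 6.43 in the pools, 7.06 in tumour 1 and 4.88 in tumour 2, so that the tumours stood 2.18 apart.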
